A study of Mus musculus with 22 samples.

Results

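The CXC chemokines that attract neutrophils were followed in mouse bone marrow-derived macrophages (BMDM) on 22 one-colour Agilent arrays. The set comprised 5 genes, Cxcl1, Cxcl2, Cxcl3, Cxcl5 and Ppbp, and every non-control probe whose RefSeq accession mapped to one of these symbols was used. Each gene had 1 such probe, read through NM_008176 for Cxcl1, NM_009140 for Cxcl2, NM_203320 for Cxcl3, NM_009141 for Cxcl5 and NM_023785 for Ppbp. All 5 probes were among the 28103 probes tested, which held 18375 genes with a symbol. Since each gene rests on 1 probe, no second probe was there to check it, and whether a probe reads only its own transcript was not tested.

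The study compared BMDM of male C57BL/6 mice aged 10 to 14 weeks that were wild-type (wt), deficient in the p38-activated kinase MK2 (MK2-/-) or deficient in both MK2 and its relative MK3 (MK2/3-/-). Cells had been differentiated in M-CSF and then received 100 ng/ml LPS, the endotoxin of Gram-negative bacteria that activates TLR4, or culture medium alone for 360 min. There were 3 wt, 4 MK2-/- and 4 MK2/3-/- arrays with LPS and 4 wt, 4 MK2-/- and 3 MK2/3-/- arrays with medium, which the methods describe as independent experiments. Macrophages lacking MK3 alone and other LPS times are not analysed here. Each genotype was hybridised on a slide of its own, so that genotype and slide cannot be told apart in a direct comparison of genotypes, whereas LPS and medium shared a slide.

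All 5 genes encode small secreted proteins whose receptor binding depends on a glutamate-leucine-arginine motif ahead of the first cysteines, and they act through CXCR2 on neutrophils. Cxcl1 (KC), Cxcl2 (MIP-2) and Cxcl3 (DCIP-1) are made rapidly by macrophages that sense LPS, Cxcl5 (LIX) is better known from epithelial and stromal cells and platelets, and Ppbp is the precursor of the platelet chemokine CXCL7. Transcription through NF-kB and an mRNA kept short-lived by AU-rich elements, which tristetraprolin (Zfp36) binds and the p38-MK2 pathway protects, are the textbook controls of the LPS-inducible members.

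The 5 genes lie in a cluster on chromosome 5, where the annotation orders them as Cxcl5, Ppbp, Pf4, Cxcl3, Cxcl15, Cxcl1 and Cxcl2 between Rassf6 and Mthfd2l. RefSeq promoter sequences were on hand for 4 of them. The 100 bases ahead of the start site are shown, because the windows of the 3 genes that moved most with LPS share a run of letters of NF-kB type. Capitals mark GGGAATTTCCC, the longest run common to the windows of Cxcl1, Cxcl2 and Cxcl3, and all 4 windows are on the plus strand of GRCm38.p6.
Cxcl1, chr5:90891145-90891244: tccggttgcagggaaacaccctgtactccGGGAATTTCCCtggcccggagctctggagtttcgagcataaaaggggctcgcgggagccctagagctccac
Cxcl2, chr5:90903799-90903898: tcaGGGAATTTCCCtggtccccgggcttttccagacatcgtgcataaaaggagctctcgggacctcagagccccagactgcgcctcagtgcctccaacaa
Cxcl3, chr5:90786001-90786100: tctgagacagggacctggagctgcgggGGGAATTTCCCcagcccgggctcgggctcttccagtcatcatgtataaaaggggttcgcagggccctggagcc
Ppbp, chr5:90768418-90768517: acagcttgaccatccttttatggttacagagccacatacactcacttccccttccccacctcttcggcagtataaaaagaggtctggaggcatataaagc
The shared run of 11 bases began 71 bases ahead of the start in Cxcl1, 97 bases in Cxcl2 and 73 bases in Cxcl3, and those letters were not in the Ppbp window. Searched on both strands, it was in 5 of all 32851 promoter windows of this length, or 0.0152%, the 3 that defined it included. The TATA-type hexamer ATAAAA, which does not overlap that run, was in all 4 windows, against 7.07% of all windows. On the printed strand a T precedes it in Cxcl3 and Ppbp, and a C in Cxcl1 and Cxcl2. These windows belong to related genes of the same cluster, so they are not independent and the share is no test of enrichment. The AP-1-type motif TGANTCA was in 0 of the 4 windows, against 2.73% of all. A match is a description of the letters, and binding was not measured.

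The share of probes read as well above background ran from 61.1 to 82.7% over the arrays, and none of the spots of the 5 genes was saturated. The 5 macrophage markers with a probe, among them Csf1r, Adgre1 and Lyz2, were well above background on every array. The targeted genes followed the labels. Mapkapk2 was lower in MK2-/- than in wt by 3.02 in medium and by 3.28 under LPS on the log2 scale, and Mapkapk3 was lower in MK2/3-/- than in MK2-/- by 1.73 and by 4.35. Limma gave adjusted p-values of 3.25e-05, 2.02e-05, 0.000472 and 1.86e-09 in this order. The Mapkapk2 probe stayed well above background in the deficient cells, at means of 8.44 to 11.61, as did the Mapkapk3 probe on all 7 MK2/3-/- arrays. Levels below are log2 of the processed signal after quantile normalisation, in replicate order, with SD over the arrays of a group, and a difference was called at an adjusted p under 0.05 in limma.

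LPS raised 4 of the 5 chemokine transcripts in each genotype, and Ppbp passed the test in none. Cxcl1, Cxcl2 and Cxcl3 rose more than 100-fold in wt and MK2-/- BMDM, where they ranked from 9 to 22 and from 13 to 24 among the 28103 probes ordered from the largest increase. The increases in MK2/3-/- BMDM were between 82.2-fold for Cxcl3 and 155-fold for Cxcl1. Of all probes, 18.3% were called higher with LPS in wt, 17.6% in MK2-/- and 20.1% in MK2/3-/-. The median difference of the 5 genes was 6.90 in wt, 8.51 in MK2-/- and 6.36 in MK2/3-/-, with medians over all probes of -0.06, -0.04 and -0.02.

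**Figure D1:**
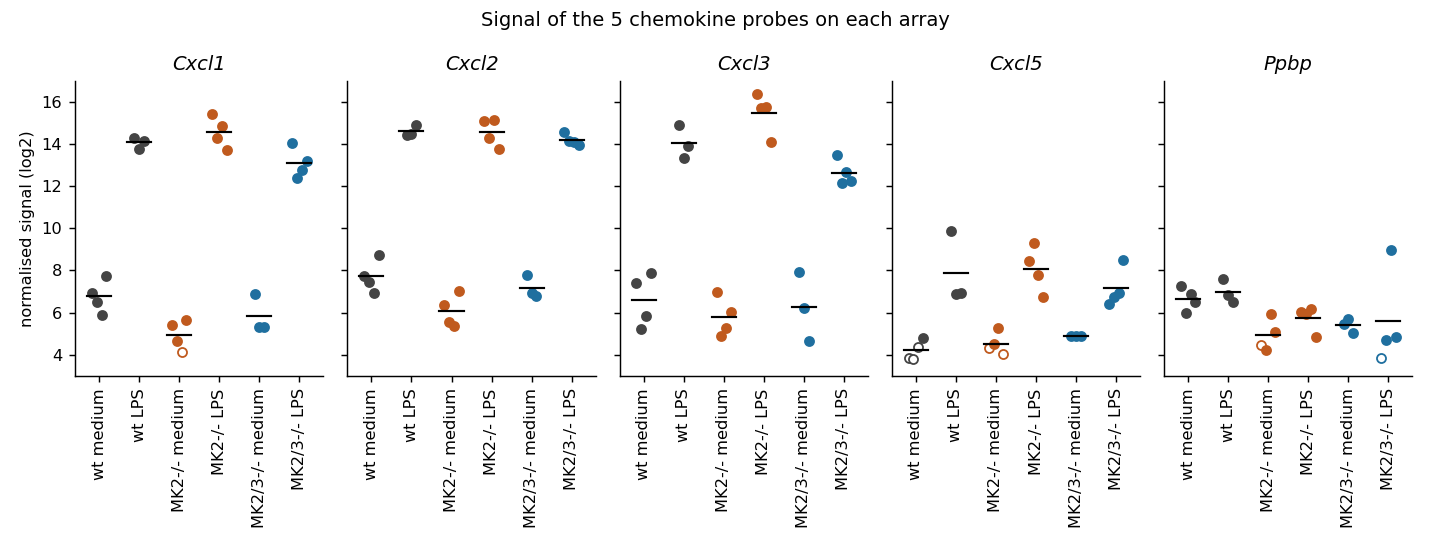
Normalised signal (log2, vertical axis) of each chemokine probe on each of the 22 arrays, by genotype and treatment. Each point is 1 array, open points were not well above background, and the line is the group mean. For Cxcl1, Cxcl2, Cxcl3 and Cxcl5 every LPS array lies above every medium array of its genotype, whereas the Ppbp groups overlap, with 1 MK2/3-/- LPS array at 9.00.

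Cxcl1 encodes KC, the mouse chemokine most often measured as a marker of neutrophil recruitment. In wt medium its signal was 6.91, 6.50, 5.91 and 7.76, and in wt LPS it was 14.29, 13.79 and 14.17. The LPS arrays thus lay far above the medium arrays and within 0.49 of each other, while the medium arrays spanned 1.86. The difference was 7.31 ± 0.52 (SE), or 159-fold, with an adjusted p of 3.40e-09 in limma. In MK2-/- medium it was 5.40, 4.63, 4.15 and 5.64, with 3 of the 4 spots well above background, and in MK2-/- LPS 15.46, 14.32, 14.88 and 13.74. In MK2/3-/- medium it was 6.87, 5.30 and 5.30, and in MK2/3-/- LPS 14.06, 12.38, 12.78 and 13.19. No LPS array overlapped a medium array in either. The differences of 9.65 ± 0.48 in MK2-/- and 7.28 ± 0.52 in MK2/3-/- were called, with adjusted p-values of 3.35e-11 and 1.60e-09 in limma.

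Cxcl2 encodes MIP-2, a close relative of KC. Its signal in wt was 7.74, 7.47, 6.92 and 8.73 in medium and 14.42, 14.50 and 14.92 with LPS. In MK2-/- it was 6.38, 5.53, 5.34 and 7.03 in medium and 15.09, 14.31, 15.13 and 13.79 with LPS. In MK2/3-/- it was 7.78, 6.94 and 6.80 in medium and 14.59, 14.16, 14.09 and 13.98 with LPS. The LPS arrays of all 3 genotypes sat in the narrow band from 13.79 to 15.13, and the medium arrays of all 3 sat at or below 8.73. LPS raised the transcript by 6.90 ± 0.44 in wt, by 8.51 ± 0.40 in MK2-/- and by 7.03 ± 0.44 in MK2/3-/-, which is 119-fold, 365-fold and 131-fold. The adjusted p-values in limma were 9.52e-10, 1.98e-11 and 3.38e-10.

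Cxcl3, the member first found in dendritic cells, had the widest spread among genotypes under LPS. In wt it was 7.40, 5.21, 5.82 and 7.90 in medium and 14.92, 13.36 and 13.91 with LPS. In MK2-/- it was 6.98, 4.89, 5.27 and 6.02 in medium and 16.38, 15.74, 15.74 and 14.10 with LPS. In MK2/3-/- it was 7.94, 6.22 and 4.67 in medium and 13.47, 12.16, 12.70 and 12.23 with LPS. The medium arrays of each genotype spread over 2.09 to 3.27, more than for Cxcl1 or Cxcl2. The increase was 7.48 ± 0.76 in wt (179-fold), 9.70 ± 0.70 in MK2-/- (831-fold) and 6.36 ± 0.76 in MK2/3-/- (82.2-fold). Limma gave adjusted p-values of 2.48e-07, 1.65e-09 and 1.03e-06.

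Cxcl5, the member tied to epithelial and stromal cells, rose less. Its medium signal was near the detection limit, at 3.86, 3.81, 4.35 and 4.79 in wt with 1 of 4 spots well above background, and at 4.30, 4.48, 5.26 and 4.03 in MK2-/- with 2 of 4. In MK2/3-/- medium it was 4.90, 4.87 and 4.90, all well above background. With LPS it reached 9.87, 6.86 and 6.92 in wt, where replicate 1 stood about 3 log2 units above the others. In MK2-/- LPS it was 8.45, 9.31, 7.78 and 6.73, and in MK2/3-/- LPS 6.41, 6.75, 6.94 and 8.49, again with 1 array above the rest. The differences on the log2 scale were 3.68 ± 0.66, 3.55 ± 0.61 and 2.26 ± 0.66, of which the first 2 depend on medium spots that were mostly or partly not well above background. The adjusted p-values in limma were 0.000174, 7.89e-05 and 0.00792. Without wt LPS replicate 1 the increase in wt was 2.69, still called, and with normexp background correction the differences were 1.92 in wt and 1.86 in MK2-/-, both still called, and 1.07 in MK2/3-/-, with an adjusted p of 0.0679 in limma.

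The arrays with the highest Cxcl5 in wt LPS (replicate 1) and in MK2/3-/- LPS (replicate 4) also had the highest summed signal of the stromal, endothelial and epithelial markers in their groups. The sum of these 8 probes was 61423 on the wt array, against 12407 and 21568 on its neighbours. On the MK2/3-/- array it was 30689, against 2307 to 9420. Its largest parts were Col1a2 and Col1a1, with wt LPS means of 14.06 and 12.55, against 9.71 or less for the other tested markers. The sum thus mainly reads these 2 collagen probes. Of the 8 probes, 6 were well above background on wt LPS replicate 1, against 7 on each neighbour. In MK2-/- LPS the order was another, with the highest Cxcl5 on replicate 2, at a stromal sum of 3317, the lowest of its group. The sums in medium ran from 3297 to 104060 in wt, from 1679 to 26705 in MK2-/- and from 917 to 47794 in MK2/3-/-, with 6 to 8 of the 8 probes well above background on every array. In bulk RNA, more cells of a type and more RNA per cell cannot be told apart, and the part of these transcripts in the Cxcl5 values was not tested.

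Ppbp, the precursor of platelet basic protein and CXCL7, did not pass the test for LPS in any genotype. In wt it was 7.26, 6.00, 6.90 and 6.51 in medium and 7.58, 6.81 and 6.52 with LPS, so that the ranges overlapped. In MK2-/- it was 4.46, 4.21, 5.91 and 5.09 in medium, with 3 of 4 spots well above background, and 6.03, 5.94, 6.18 and 4.86 with LPS. In MK2/3-/- it was 5.47, 5.69 and 5.02 in medium and 3.83, 4.72, 9.00 and 4.83 with LPS. Replicate 3 stood more than 4 log2 units above the other LPS arrays of that group, and the spot of replicate 1 was not well above background. The differences were 0.30 (95% interval -1.40 to 2.00), 0.84 (-0.74 to 2.41) and 0.20 (-1.50 to 1.90), with adjusted p-values of 0.805, 0.399 and 0.867 in limma. Without MK2/3-/- LPS replicate 3, the difference in MK2/3-/- turned to -0.94, with an adjusted p of 0.104 in limma. The 8 platelet probes summed to 27040 on that array and to between 14321 and 23512 on the other 3, with 3 to 6 of the 8 well above background on these 4 arrays, and the part of platelet transcripts was not tested.

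**Figure D2:**
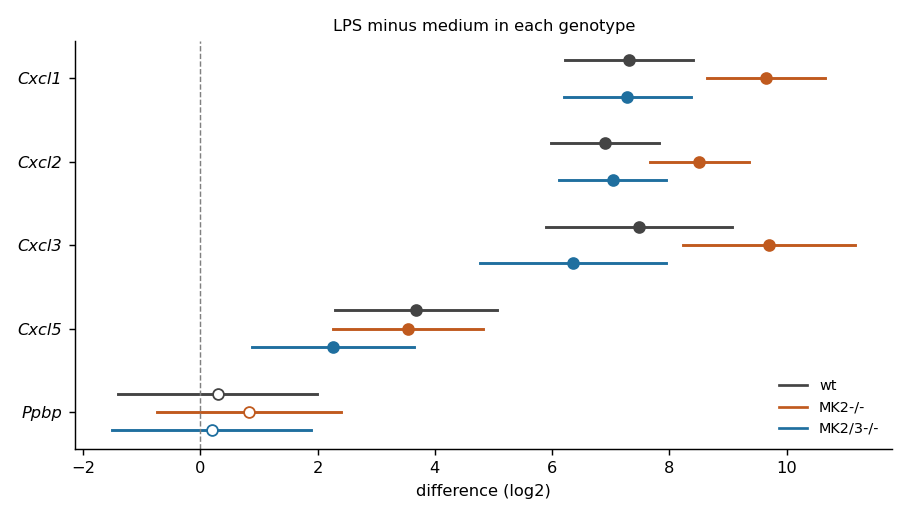
Difference between LPS and medium (log2, horizontal axis) for each chemokine in wt, MK2-/- and MK2/3-/- BMDM, with the 95% interval from limma. Filled points were called at an adjusted p under 0.05. Cxcl1, Cxcl2 and Cxcl3 lie between 6.36 and 9.70, Cxcl5 between 2.26 and 3.68, and the intervals of Ppbp span 0.

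Under LPS, the question was whether the loss of MK2, or of MK2 and MK3, changed the level that the chemokines reached. Against wt, 0 of the 5 transcripts passed the test in either genotype, but MK2/3-/- and MK2-/- BMDM differed from each other. Cxcl3 was 7.21-fold lower and Cxcl1 2.82-fold lower in MK2/3-/- than in MK2-/- BMDM, whereas Cxcl2, Cxcl5 and Ppbp were not called. The direct comparison carries the slide with the genotype.

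Between MK2/3-/- and MK2-/- BMDM under LPS, 2 of the 5 were called lower, against 5.98% of all probes. The median difference of the 5 was -0.92, against -0.08 for all probes. For Cxcl3 the mean was 12.64 ± 0.60 (SD, n = 4) in MK2/3-/- and 15.49 ± 0.98 (n = 4) in MK2-/-. The highest MK2/3-/- array, at 13.47, was below the lowest MK2-/- array, at 14.10. The difference of -2.85 ± 0.70 (SE) had an adjusted p of 0.0116 in limma and was the 10th lowest of the 28103 probes. For Cxcl1 the means were 13.10 ± 0.72 and 14.60 ± 0.74 (SD), and the ranges overlapped between 13.74 and 14.06. Its difference of -1.50 ± 0.48 had an adjusted p of 0.0452 in limma, close to the threshold. The Cxcl3 call held when any 1 of the 22 arrays was left out, with differences from -3.31 to -2.55, whereas the Cxcl1 call was lost in 11 of the 22 fits. The arrays whose absence ended it were wt LPS replicates 2 and 3, wt medium replicates 1 and 2, MK2-/- LPS replicates 1, 2 and 3, MK2-/- medium replicate 1 and MK2/3-/- LPS replicates 2, 3 and 4. Over all 22 fits the Cxcl1 difference ran from -1.82 to -1.21, with adjusted p-values up to 0.152 in limma. With the methods' t-test after adjustment neither was called, with p-values of 0.0648 for Cxcl3 and 0.195 for Cxcl1 over all probes.

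Cxcl2 was not called in any comparison under LPS. Its means under LPS were 14.58 ± 0.65 in MK2-/- and 14.20 ± 0.27 in MK2/3-/- (SD, n = 4 each), and 14.61 ± 0.27 (n = 3) in wt. The difference between the deficient genotypes was -0.38 with a 95% interval from -1.23 to 0.47 and an adjusted p of 0.602 in limma. Cxcl5 differed by -0.92 (-2.20 to 0.36) and Ppbp by -0.16 (-1.73 to 1.41), with adjusted p-values of 0.351 and 0.929 in limma. These intervals are wide and leave room for changes of more than 2-fold.

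Against wt, the deficient genotypes lay on opposite sides for Cxcl3. MK2-/- BMDM were higher by 1.42 (95% interval -0.16 to 3.01) and MK2/3-/- BMDM lower by 1.42 (-3.01 to 0.16), with adjusted p-values of 0.217 and 0.181 in limma. Neither difference passed the test, and both groups overlapped the 3 wt arrays. Cxcl1 differed from wt by 0.52 in MK2-/- and by -0.98 in MK2/3-/-, with adjusted p-values of 0.535 and 0.177. Cxcl2 differed by -0.03 and -0.41, and Cxcl5 by 0.19 and -0.74. All probes called made up 11.6% in MK2-/- against wt and 23.7% in MK2/3-/- against wt, so that 0 of 5 was not above the background in either.

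Ppbp was lower than in wt by 1.21 in MK2-/- and by 1.38 in MK2/3-/- under LPS, with adjusted p-values of 0.331 and 0.228 in limma. In MK2-/- no LPS array, at most 6.18, reached the lowest wt LPS array, at 6.52. Replicate 3 of MK2/3-/- LPS alone exceeded the wt arrays. Without it the difference from wt was -2.51 with an adjusted p of 0.00106 in limma, so that the lack of a call rests on that array. The summed platelet signal was also lower in the deficient genotypes under LPS, at 26090 to 28509 in MK2-/- and 14321 to 27040 in MK2/3-/-, against 33858 to 36436 in wt, with 3 to 7 of the 8 probes well above background. Most of this sum was Pf4, and the other platelet markers did not all follow it. In MK2-/- against wt 2 of the 8 were called, Itga2b and Gp1ba, and both were higher, with 0 of 3 and 1 of 3 wt spots well above background. Of all probes, 4.17% were called higher there. In MK2/3-/- against wt 2 of the 8 were called lower, Pf4 among them, and 0 higher, against 14.8% of all probes called lower. The part of platelet transcripts in these Ppbp differences was not tested.

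**Figure D3:**
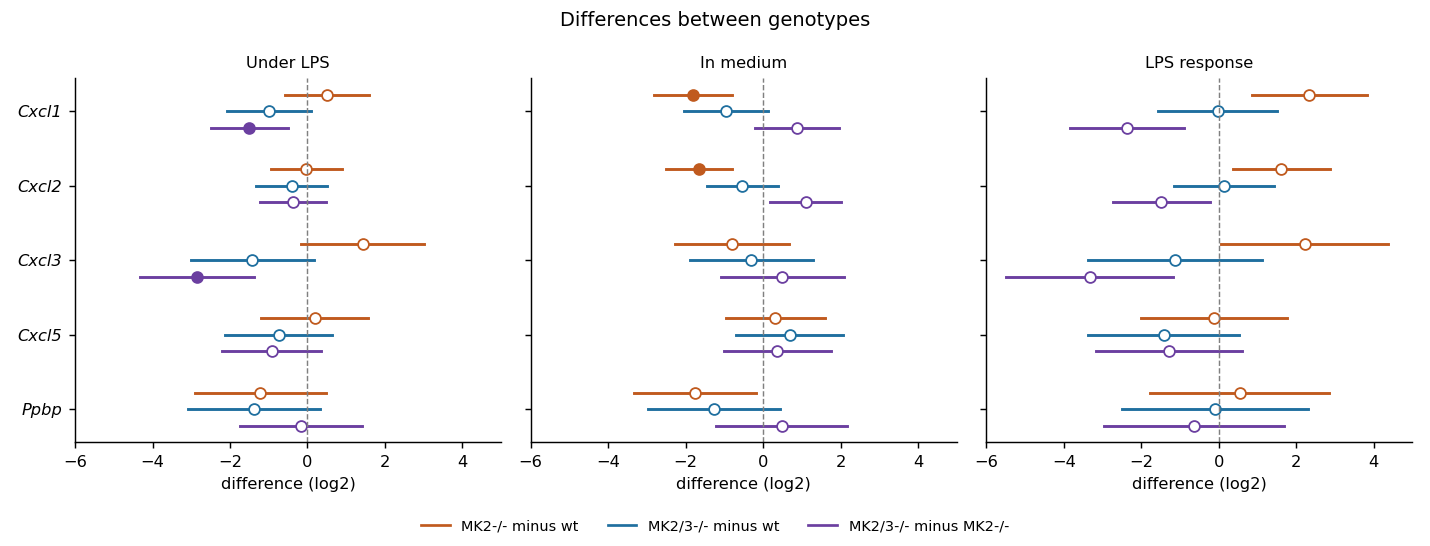
Differences between genotypes (log2, horizontal axis) under LPS, in medium and in the LPS response, which is the difference between LPS and medium compared across genotypes, with 95% intervals from limma. Filled points were called at an adjusted p under 0.05. Under LPS the filled points are Cxcl1 and Cxcl3 in MK2/3-/- minus MK2-/-, in medium Cxcl1 and Cxcl2 in MK2-/- minus wt, and none is filled for the LPS response.

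The differences between MK2/3-/- and MK2-/- under LPS were unlike in size for the 3 inducible genes. Ratios of the normalised signals of 2 probes on the same array describe this. No test of a ratio was run, and the group means of the ratios restate the differences given above. The log2 ratio of Cxcl3 over Cxcl2 was 1.29, 1.43, 0.61 and 0.30 on the 4 MK2-/- LPS arrays and -1.12, -2.00, -1.39 and -1.75 on the 4 MK2/3-/- LPS arrays. All MK2-/- arrays were thus above 0 and all MK2/3-/- arrays below -1. The 3 wt LPS arrays had 0.50, -1.14 and -1.01, and lay between the other means. The ratio of Cxcl3 over Cxcl1 ran from 0.35 to 1.42 in MK2-/- and from -0.95 to -0.08 in MK2/3-/-, and that of Cxcl1 over Cxcl2 from -0.25 to 0.37 and from -1.77 to -0.53. In each of the 3 ratios the ranges of the deficient genotypes under LPS were apart. These are not 3 separate results, since on each array the log2 ratio of Cxcl3 over Cxcl2 is the sum of the other 2. Ratios of other probe pairs were not formed, so no background share is given. In medium, Cxcl3 over Cxcl1 ran from 0.26 to 1.58 in MK2-/- and from -0.62 to 1.07 in MK2/3-/-, so that the MK2-/- range resembled that under LPS. Since the probes differ in their response, a ratio of 0 does not mean equal transcript levels, and these ratios carry the same slide as the genotype.

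**Figure D4:**
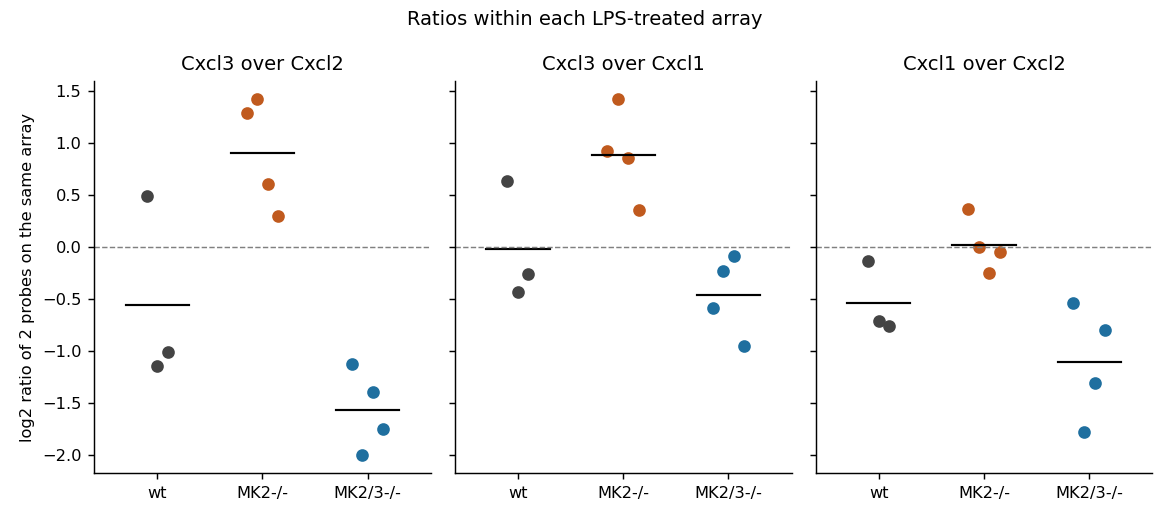
Log2 ratio of 2 chemokine probes on the same LPS-treated array (vertical axis), by genotype. Points are single arrays and lines are group means. The 4 MK2-/- and the 4 MK2/3-/- arrays do not overlap in any panel, and Cxcl3 over Cxcl2 has means of 0.91 and -1.56.

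In medium alone, MK2-/- BMDM held less Cxcl1 and Cxcl2 transcript than wt BMDM. The Cxcl1 mean was 4.95 ± 0.69 (SD, n = 4) in MK2-/- and 6.77 ± 0.78 (n = 4) in wt, and no MK2-/- array reached the lowest wt array. The Cxcl2 means were 6.07 ± 0.78 and 7.72 ± 0.76, with an overlap from 6.92 to 7.03. The differences of -1.82 ± 0.48 (3.53-fold) and -1.65 ± 0.40 (3.13-fold) had adjusted p-values of 0.0286 and 0.0211 in limma. These 2 of 5 were called lower, against 3.08% of all probes. Both calls were lost when wt medium replicate 1 or 4 or MK2-/- medium replicate 2 or 3 was left out, with differences down to -1.49 for Cxcl1 and -1.31 for Cxcl2. Both were also lost when only the groups compared were fitted, with adjusted p-values of 0.0544 for Cxcl1 and 0.0789 for Cxcl2 in limma, where Ppbp was called instead at 0.0473. The methods' t-test after adjustment called neither. Cxcl1 alone was lost with 75th percentile scaling and with normexp background correction, where its difference was -0.78 with an adjusted p of 0.166 in limma.

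Wt medium replicate 4 had the highest Cxcl1, Cxcl2, Cxcl3 and Cxcl5 of all medium arrays of its genotype. The other chemokines of the set were not called between these groups, with Cxcl3 at -0.79, Cxcl5 at 0.32 and Ppbp at -1.75. All 4 wt medium arrays were above all MK2-/- medium arrays for Ppbp, at an adjusted p of 0.151 in limma. Between MK2/3-/- and wt in medium, 0 of 5 was called, with 1.92% of all probes called, and 0 of 5 against MK2-/-, with 2.68% of all probes called. The differences from wt ran from -1.27 for Ppbp to 0.69 for Cxcl5, and those from MK2-/- from 0.37 for Cxcl5 to 1.10 for Cxcl2, whose adjusted p was 0.221 in limma.

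The LPS response itself, in which the slide cancels, was next compared between genotypes. Cxcl1 rose by 2.34 ± 0.71 (SE) more in MK2-/- than in wt on the log2 scale, Cxcl3 by 2.22 ± 1.03 more and Cxcl2 by 1.61 ± 0.60 more, but none passed the test, with adjusted p-values of 0.404, 0.638 and 0.525 in limma. Of all 28103 probes, 0 were called in that comparison and 2164 had an unadjusted p under 0.05. With array weights limma called 117 probes, none of them among the 5. For MK2/3-/- against MK2-/- the Cxcl3 response differed by -3.34 ± 1.03, that of Cxcl1 by -2.37 ± 0.71 and that of Cxcl2 by -1.48 ± 0.60, with adjusted p-values of 0.320, 0.290 and 0.479. In that comparison 0.0676% of all probes were called. For MK2/3-/- against wt the differences of the responses ran from -1.42 for Cxcl5 to 0.13 for Cxcl2, 0 of 5 was called, and 0.979% of all probes were called.

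Across the 11 LPS arrays, Cxcl1 and Cxcl3 followed each other with a Pearson r of 0.918. The r of Cxcl1 with Cxcl2 was 0.760, that of Cxcl2 with Cxcl3 0.621, and those of Ppbp with the other 4 lay between 0.011 and 0.243. Cxcl5 reached 0.537 with Cxcl3 and 0.412 with Cxcl1. Among 17602 probes compared, the genes most like Cxcl3 were Cav1 (0.945), Rnf41 (0.918) and Cxcl1, and those most like Cxcl1 were Cxcl3, Zdhhc15 (0.896) and Bcat2 (0.895). Cxcl2 was most like Fbxl21 (0.860), Zdhhc15 (0.811) and Pou2f1 (0.806), Cxcl5 most like Egln3 (0.912), Brap (0.893) and Tmem184c (0.887), and Ppbp most like Atp5h (0.935), Afg3l1 (0.935) and Elob (0.920). The arrays share genotypes and slides, and these values only describe them.

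The signalling receptors of these ligands are carried by neutrophils. Cxcr2, the signalling receptor of all 5, had group means between 4.35 and 4.92 and was well above background on 16 of the 22 arrays. Of the 3 receptor genes, 0 were called with LPS in wt and in MK2-/-, against 42.0 and 45.4% of all probes. In MK2/3-/- 1 was called higher with LPS, against 20.1% of all probes. Ackr1, a decoy receptor that binds these chemokines without signalling, was the one called and was well above background on all 22 arrays. Under LPS it was also higher in MK2/3-/- than in wt by 1.10, with an adjusted p of 0.00569 in limma. In that comparison 8.84% of all probes were called higher. Its means in medium were 6.69 in wt, 7.52 in MK2-/- and 7.60 in MK2/3-/-, so that a gap from wt was present without LPS. Of the 11 neutrophil markers 10 had a probe, and 7 to 10 of these were well above background on every array. Their summed signal under LPS ran from 7474 to 12682 in wt, from 5440 to 12494 in MK2-/- and from 4520 to 14130 in MK2/3-/-, so that these ranges overlapped. Of the 9 that were tested, 1 was called lower in MK2/3-/- than in wt under LPS, S100a8 by 3.11, against 14.8% of all probes. Elane was the 1 of 9 called higher in MK2/3-/- than in MK2-/-, by 0.84, against 7.39% of all probes. Both counts were near these shares.

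Of 10 other CXC ligands, 8 were tested. LPS raised 2 of them in each genotype, Cxcl9 and Cxcl10, which attract T cells through CXCR3, and lowered 1, Cxcl14. With LPS, 17.6 to 20.1% of all probes were called higher and 23.7 to 28.5% lower, depending on the genotype. Cxcl10 rose by 5.53 in wt, 7.32 in MK2-/- and 7.08 in MK2/3-/-, and between genotypes under LPS it differed by at most 0.11. Its LPS means were high, from 18.13 to 18.24, and whether such bright spots were saturated or compressed was not tested. Cxcl9 was higher on every MK2/3-/- LPS array than on any wt or MK2-/- LPS array, with differences of 2.09 and 2.01 that were not called, at adjusted p-values of 0.0869 and 0.102 in limma. Pf4, the platelet factor that lies beside Ppbp, was the only other ligand called between genotypes under LPS. Its signal was lower in MK2/3-/- than in wt by 0.74, with an adjusted p of 0.0447 in limma. As 1 of 8 called lower, it was near the 14.8% of all probes. Pf4 was also lower in MK2-/- than in wt in medium, by 1.04, and is 1 of the 8 platelet markers summed above. A further list held 7 genes named for the locus, of which 6 were tested. Rassf6 and Mthfd2l border the cluster, and the others, such as Parm1, Areg and Ereg, are not among the genes that the annotation puts between them. Under LPS 1 was called higher and 1 lower in MK2-/- than in wt, against 4.17 and 7.40% of all probes. In MK2/3-/- 2 were lower than in wt, against 14.8%. Against MK2-/- 1 was higher and 1 lower, with 7.39 and 5.98% of all probes. The higher one was Parm1, at 8.21 ± 0.39 (SD, n = 4) in MK2/3-/- and 6.88 ± 0.33 (n = 4) in MK2-/-, with ranges apart. Areg, an EGF receptor ligand, was higher in MK2-/- than in wt under LPS by 1.70 and lower in MK2/3-/- than in MK2-/- by 1.63. Its adjusted p-values in limma were 0.0186 and 0.0109, and the ranges overlapped in both comparisons. Ereg, another EGF receptor ligand, was called lower in MK2/3-/- than in wt with an adjusted p of 0.0139, but was well above background on 1 of the 4 MK2/3-/- LPS arrays, and so no size is given. Rassf6, at one end of the cluster, was called lower than in wt in both deficient genotypes, with adjusted p-values of 0.0257 and 0.0312, and was well above background on 2 of 3 wt LPS arrays and on 0 of 4 in each of the others.

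Cytokines that make, mobilise or prime neutrophils rose with LPS without exception, 8 of 8 in each genotype. This compares with 18.3% of all probes called higher in wt, 17.6% in MK2-/- and 20.1% in MK2/3-/-. Csf2 was well above background on 0 of the medium arrays, Csf3 on 1 and Il1a on 4, so no size of their increase and no median of the list is given. Between MK2/3-/- and MK2-/- under LPS, 2 of the 8 were lower, against 5.98% of all probes. They were Csf2 (GM-CSF) and Csf3 (G-CSF), the growth factors of granulocytes. Csf2 was 10.46 ± 0.92 (SD, n = 4) in MK2-/- and 8.24 ± 0.64 (n = 4) in MK2/3-/-, and the ranges did not overlap. Its difference of -2.22 ± 0.59 (SE) had an adjusted p of 0.0184 in limma. Csf3 was 9.50 ± 1.22 and 7.07 ± 1.24, with a difference of -2.43 ± 0.69 and an adjusted p of 0.0249. Csf3 was also lower in MK2/3-/- than in wt, by 2.95 with an adjusted p of 0.00790, whereas Csf2 was not called, at -0.58. The other 6, Il1a, Il1b, Il6, Tnf, Ccl3 and Ccl4, lay within -0.27 and 0.81 in all 3 comparisons under LPS. Of these, Il1b, Il6, Ccl3 and Ccl4 had high LPS means, from 17.69 to 18.26. Whether such bright spots were saturated or compressed was not tested. In medium, Il6 was lower in MK2-/- than in wt by 3.90, beside Cxcl1 and Cxcl2. The Il6 values were uneven over the wt medium arrays, from 6.41 to 13.36, against 4.88 to 6.36 in MK2-/- medium. Il1a was called lower too, and was well above background on 3 of 4 wt and 1 of 4 MK2-/- medium arrays. These 2 of the 8 were called lower in medium, against 3.08% of all probes, and were named after their values were seen.

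The NF-kB and C/EBP families hold transcription factors and, with Nfkbia and Nfkbib, cytosolic inhibitors of NF-kB. Of 11 of their genes, LPS raised 10 in wt, 11 in MK2-/- and 8 in MK2/3-/-. The shares of all probes called higher were 18.3, 17.6 and 20.1% in this order. Under LPS 3 of the 11 were lower in MK2/3-/- than in MK2-/- and than in wt, namely Cebpb, Cebpd and Bcl3. Of all probes, 5.98% and 14.8% were called lower in these comparisons. Rel, the c-Rel subunit, was higher in MK2/3-/- than in MK2-/-, where 7.39% of all probes were called higher. Cebpd was lower than in wt by 2.25 ± 0.33 (SE) and lower than in MK2-/- by 1.33 ± 0.30, with adjusted p-values of 0.000152 and 0.00653 in limma. For Cebpb the values were 1.10 ± 0.26 and 1.03 ± 0.24, with 0.00468 and 0.00732. Rel differed by 2.00 ± 0.43 with an adjusted p of 0.00432. Cebpb and Cebpd were also the factors whose LPS response was called between MK2/3-/- and wt, at -1.55 and -2.59, with adjusted p-values of 0.0468 and 0.0181 in limma. In that comparison 0.779% of all probes were called lower. Nfkb1, Nfkb2, Nfkbia, Nfkbib, Nfkbiz, Rela and Relb were called in none of the 3 comparisons under LPS, within -0.23 and 0.54. Nfkbia had high LPS means, from 17.98 to 18.10, and whether its spots were saturated or compressed was not tested.

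**Figure D5:**
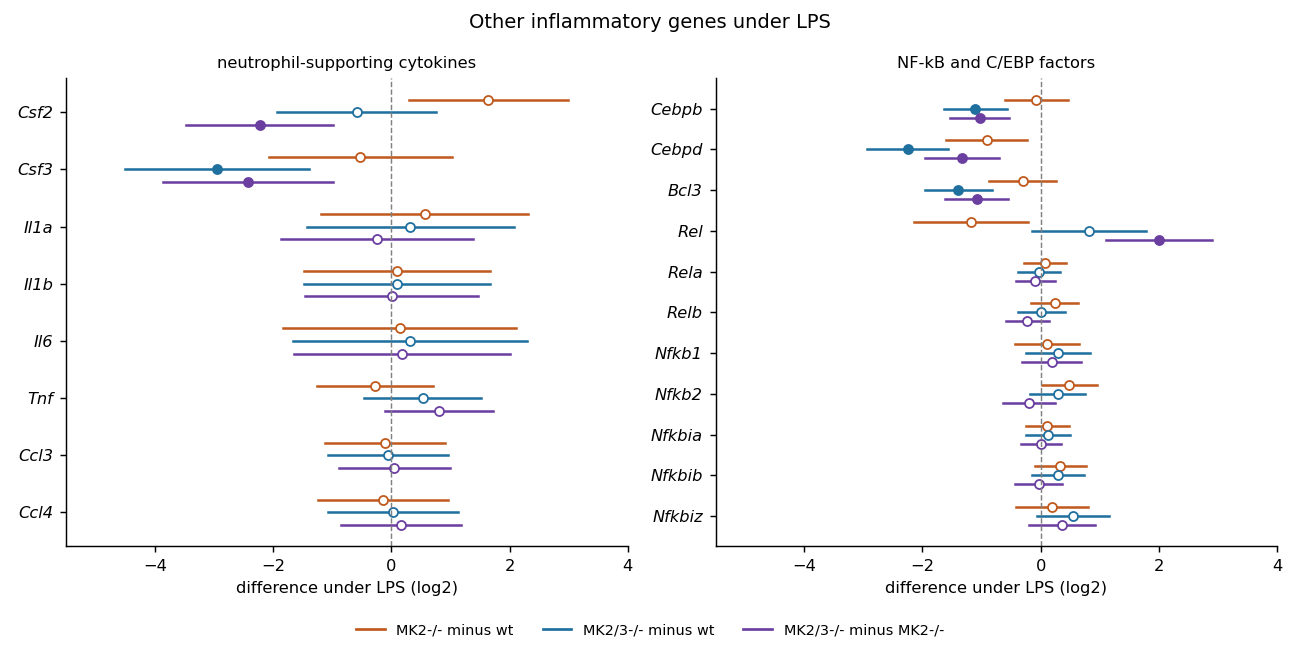
Differences between genotypes under LPS (log2, horizontal axis) for 8 cytokines that act on neutrophils and 11 NF-kB and C/EBP factors, with 95% intervals from limma. Filled points were called at an adjusted p under 0.05. Csf2 and Csf3 in the left panel and Cebpb, Cebpd, Bcl3 and Rel in the right panel have filled points, and the other genes have open points only.

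Among 11 factors of mRNA decay, 2 were lower in MK2-/- than in wt under LPS, against 7.40% of all probes, 5 were lower in MK2/3-/- than in wt, against 14.8%, and 0 were called between MK2/3-/- and MK2-/-, against 13.4% of all probes. Tia1 and Zfp36l1 were the 2 in MK2-/-, and Tia1, Tial1, Zfp36l1, Zfp36l2 and Zfp36 the 5 in MK2/3-/-. Zfp36 encodes tristetraprolin, which binds the AU-rich element of Cxcl1, Cxcl2 and Cxcl3 transcripts. Its transcript was lower in MK2/3-/- than in wt by 1.04 ± 0.35 (SE), with an adjusted p of 0.0389 in limma, and differed between MK2/3-/- and MK2-/- by -0.37, with an adjusted p of 0.515. Protein, phosphorylation and transcript half-life were not measured on these arrays.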

How the data were processed

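RNA of mouse BMDM was hybridised to 22 one-colour Agilent arrays. The deposited scanner files hold, per the file headers, the processed signal intensity that the authors obtained with Agilent Feature Extraction 11.0.1.1 (background-corrected, linear scale, grid on mm9). A table of normalised log2 values deposited by the authors, with columns centred near 0 and a direction and scale checked against the scanner values, served as an alternative. Of 62976 spots per array, 3671 control spots were left out, spots marked as outliers were set missing, and log2 processed signals were quantile normalised over the 22 arrays. Probes with an NCBI accession and a signal well above background on 3 or more arrays (28103) were tested with limma 3.58.1 (R 4.3.3), with 6 group means, 12 comparisons and Benjamini-Hochberg adjustment over all probes, and called at an adjusted p under 0.05. The procedure was tested on simulated data.

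Groups came from the sample titles, which differ from the series design text in the number of samples and in the groups with 3 replicates. The number of arrays, 3 or 4 per group, limits the precision. A probe was assigned to a gene by its RefSeq accession. Among the lists, genes called between genotypes under LPS or in the LPS response could be named, at most 4 per list by the smallest adjusted p. Other genes named from the lists, such as Cxcl10, Zfp36 and the cytokines that were not called, were chosen after their values were seen. The 5 chemokines and the lists were chosen with earlier results of these data known, and Cxcl1, Cxcl2 and Cxcl3 were among the genes the study picked from these arrays, so they are not independent evidence. Markers were summed as linear normalised signal. Promoters came from RefSeq for GRCm38.p6, and no other coordinates are given, since the arrays' grid is on another build. Alternatives covered scaling, background correction, filters, marked spots, probe choice, array weights, variance moderation, the samples in the fit, a 2-fold minimum, replicate blocks, the methods' t-test, the deposited normalised table and leaving out each array.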

Additional observations from a re-analysis of the deposited data

How the results depend on the processing

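Among the other settings, 903 values kept their direction and their side of the threshold, 12 lost the call, 6 gained one and 9 reversed. Without 1 array 1265 kept both, 19 lost the call, 2 gained one and 34 reversed, and every reversed difference was uncalled. No cause was tested except where fewer samples entered. The methods' t-test was not run for the LPS response.

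Under LPS, 1 of the 5 genes instead of 0 was called between MK2-/- and wt with the methods' t-test before adjustment. Between MK2/3-/- and wt it was 1 instead of 0 with array weights and with that t-test before adjustment, and 0 to 1 without 1 array. Between MK2/3-/- and MK2-/- it was 1 instead of 2 with 75th percentile scaling, with only the groups compared and with array weights, 0 with the methods' t-test after adjustment, and 1 to 2 without 1 array. In medium, MK2-/- against wt had 1 instead of 2 with 75th percentile scaling, normexp and only the groups compared (there Ppbp), 0 with the methods' t-test after adjustment, and 0 to 3 without 1 array. MK2/3-/- against wt in medium had 1 instead of 0 with the methods' t-test before adjustment.

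With array weights the Ppbp difference with LPS in MK2/3-/- was -0.43, and the LPS response differed from wt by 0.81 for Cxcl5 in MK2-/- and by 0.21 for Cxcl1 in MK2/3-/-. With 75th percentile scaling, MK2/3-/- differed from MK2-/- under LPS by 0.068 for Ppbp, from wt in medium by 0.22 for Cxcl3 and from wt in the LPS response by -0.39 for Cxcl2. With normexp, Ppbp in MK2/3-/- differed from MK2-/- under LPS by 0.19, and in the LPS response from wt by 0.22 and from MK2-/- by 0.026. Without 1 array, the LPS difference of Ppbp ran from -0.0034 to 0.53 in wt and from -0.94 to 0.79 in MK2/3-/-. Under LPS, MK2-/- against wt ran from -0.22 to 0.23 for Cxcl2 and from -0.33 to 1.18 for Cxcl5, MK2/3-/- against wt from -1.25 to 0.26 for Cxcl5, and MK2/3-/- against MK2-/- from -1.30 to 0.43 for Ppbp. In medium, Cxcl3 in MK2/3-/- ran from -1.13 to 0.50 against wt and from -0.34 to 1.29 against MK2-/-. The LPS response against wt ran from -0.64 to 0.86 for Cxcl5 in MK2-/-, and in MK2/3-/- from -0.36 to 0.50 for Cxcl1, from -0.21 to 0.44 for Cxcl2 and from -1.24 to 0.49 for Ppbp.

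Scaling to the 75th percentile moved the median LPS difference of all probes to 0.25 in wt, 0.24 in MK2-/- and 0.26 in MK2/3-/-, and the share of higher differences among called probes to 58.6, 51.1 and 53.3%. Under LPS that share became 62.2% for MK2-/- against wt, 57.5% for MK2/3-/- against wt and 71.4% for MK2/3-/- against MK2-/-, and in medium 84.0, 90.4 and 88.8% in the same order. Over the settings other than the methods' t-test before adjustment, the probes called under LPS numbered 788 to 7538, 279 to 9647 and 848 to 6878 in these 3 comparisons, and in medium 634 to 5527, 240 to 4714 and 406 to 2260. That t-test called 7367, 7407 and 5517 under LPS and 6897, 6365 and 4405 in medium. For the LPS response they numbered 0 to 117, 34 to 1251 and 9 to 146.

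Replicate numbers were not shown to pair the arrays, since deviations of LPS and medium arrays of the same number correlated from -0.08 to 0.37, above 0.1 in 7 of 10 pairs. By the letter in the array names it was also 7 of 10, from -0.08 to 0.42, against 5 of 30 pairs with unlike letters. LPS and medium arrays of the same letter and genotype also came from mice of the same age, which did not hold for every pair of the same number. The main fit used no block, and whether the same letter means the same preparation was not tested. With the number or the letter of the array name within a genotype as a random replicate block (correlation 0.118 and 0.143), the counts were again 4, 4 and 4 with LPS, 0, 0 and 2 under LPS, 2, 0 and 0 in medium and 0 for each LPS response, and the block changed no call.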
